A study of Mus musculus with 6 samples.

Results

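The core circadian clock genes were followed in intestinal crypts of WT mice and of mice labelled Mtg16 KO. They are 10 genes chosen by name, namely Arntl, Clock, Npas2, Per1, Per2, Per3, Cry1, Cry2, Nr1d1 and Dbp, among the 24736 gene symbols of the deposited expression table. The clock is a transcriptional feedback loop that runs in nearly every mammalian cell, the intestinal epithelium included. ARNTL (also called BMAL1) pairs with CLOCK or NPAS2, binds E-box sequences and activates the Per and Cry genes, whose proteins then repress that pair. Nr1d1 (REV-ERBα) is activated by the same pair and represses Arntl, and Dbp is an output factor also driven through E-boxes. Transcripts of Arntl and Npas2 therefore peak at the opposite time of day to those of Dbp and Nr1d1.

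The study profiled total RNA from crypts of 3 WT and 3 Mtg16 KO male mice of 12 weeks, with 1 library per mouse. MTG16 is a transcriptional co-repressor encoded by Cbfa2t3. The labels describe the Mtg16 deletion as made by CRISPR, whereas the study's methods describe Mtg16−/− mice received from another laboratory, so the nature of the allele is uncertain here. Neither source states that the deletion is limited to the gut, and the time of day at which crypts were collected is not given in the sources used here. Crypts were released in cold buffer with 2 mM EDTA for 30 minutes. Values are TPM, a measure of transcript abundance per transcript length with 1 fixed total for all libraries, so that levels can be set side by side between genes. The number of reads is lost in this unit, and the depth of the libraries is unknown.

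The targeted gene did not separate the genotypes. Cbfa2t3 had a TPM of 3.67, 6.69 and 4.52 in WT replicates 1, 2 and 3, against 4.62, 6.43 and 3.23 for those labelled Mtg16 KO. Its groups overlapped, with a log2 fold change of -0.06 (SE 0.27, limma adjusted p = 0.937). Each direction given here, as Mtg16 KO relative to WT, therefore rests on the labels. Whether the transcript that remains comes from outside a deleted part was not tested. The paper reports increased Lgr5 and Olfm4 and reduced FABP1 and APOA4 proteins in adult Mtg16−/− intestine. Here Lgr5 and Olfm4 were higher in Mtg16 KO (log2 fold change 0.83 and 0.64) and Fabp1 and Apoa4 lower (-1.99 and -1.85). Their groups did not overlap, but none passed limma's test. The paper's own RNA-seq analysis reports genes differentially expressed on Mtg16 deletion, with enterocyte markers reduced and Wnt and stem cell signatures raised. The test used here is a different one, on TPM, so a gene not called here is not shown to be unchanged. The paper also reports increased crypt proliferation, for which Mki67, Top2a and Pcna overlapped here. An exchange of labels was not tested.

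Markers of the epithelium were high in all 6 libraries, and those of connective tissue were low. The 8 epithelial markers summed to 12206, 9558 and 9299 TPM in WT replicates 1, 2 and 3 and to 10228, 8664 and 8585 TPM in Mtg16 KO, with Krt8 the most abundant. The 10 stromal, muscle, endothelial and glial markers summed to between 13.3 and 21.7 TPM, most of it Vim. The 5 red blood cell markers summed to between 11.0 and 33.2 TPM, and each of the 5 was listed at 0 in at least 1 library. Hba-a1 was the most abundant on average, but Hba-a2 exceeded it in WT replicate 1 and Mtg16 KO replicate 1 (Hba-a1 and Hba-a2 are near-identical copies, so the division between them is uncertain).

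WT replicate 1 stood apart in its mature cell markers. The 12 enterocyte markers summed to 41286 TPM in WT replicate 1, against 14189 and 17667 TPM in WT replicates 2 and 3. They summed to 13544, 7467 and 7174 TPM in Mtg16 KO replicates 1, 2 and 3, so that every Mtg16 KO library was below every WT library. Apoa1 was the most abundant of them, and none of the 12 was listed at 0. The 9 immune markers were also highest in WT replicate 1, at 99.0 TPM against 60.0 and 56.6 TPM in the other WT libraries and 70.9, 43.7 and 33.8 TPM in Mtg16 KO. Cd3e was the most abundant of them on average. In WT replicate 2 it lay below Cd79a and Lyz2, and in Mtg16 KO replicate 3 below Lyz2. The 8 stem cell and proliferation markers summed to 1197, 1761 and 1894 TPM in WT and to 1915, 2466 and 2220 TPM in Mtg16 KO, and most of this was Olfm4. Without Olfm4 the sum of the other 7 overlapped between genotypes, at 550.4, 727 and 747 TPM in WT and 676, 855 and 772 TPM in Mtg16 KO. Singly, 5 of the 8 overlapped, Mki67, Top2a and Pcna among them. The other 3, Lgr5, Axin2 and Olfm4, were each higher in Mtg16 KO without overlap, against 9.94% of all tested genes. The 5 Paneth cell markers, led by Lyz1, summed to 2350, 5412 and 3280 TPM in WT and to 7508, 5951 and 5975 TPM in Mtg16 KO. The enterocyte and Paneth cell sums thus did not overlap between genotypes, with or without Apoa1 and Lyz1, whereas the immune sums overlapped, and the stem cell and proliferation sums separated only with Olfm4. WT replicate 1 was at an extreme of all 4. The part of these marker levels in those of the clock genes was not tested. In such bulk samples, fewer cells of a type and less RNA per cell cannot be told apart.

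Of the activators, Arntl was lower in every Mtg16 KO library than in any WT library, whereas Clock and Npas2 overlapped between the genotypes. Arntl (chromosome 7, 113178471 to 113314126, GRCm38) encodes the partner of CLOCK and NPAS2 in the activating pairs of the loop. Its TPM was 19.5, 23.9 and 15.9 in WT replicates 1, 2 and 3 and 15.2, 14.7 and 9.13 in Mtg16 KO. The groups did not overlap, but the gap between WT replicate 3 and Mtg16 KO replicate 1 was small next to the spread within each genotype. Arntl averaged 19.7 ± 3.98 TPM in WT and 13.0 ± 3.38 TPM in Mtg16 KO (SD, n = 3 each), a log2 fold change of -0.58 on log2(TPM + 1) (SE 0.22) that did not pass limma's test across all genes (adjusted p = 0.312). It was smaller, at -0.36, without Mtg16 KO replicate 3.

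Clock (chromosome 5, 76209868 to 76305603) encodes the usual partner of ARNTL. It had a TPM of 23.7, 18.6 and 21.0 in WT and of 18.7, 22.2 and 17.6 in Mtg16 KO. Its groups overlapped over most of their range, with a log2 fold change of -0.10 (SE 0.15, limma adjusted p = 0.751) that ran from -0.20 without Mtg16 KO replicate 2 to -0.02 without WT replicate 1. Npas2 (chromosome 1, 39193702 to 39363240), a paralog of Clock that can replace it, had a TPM of 15.7, 11.6 and 8.21 in WT and of 9.58, 6.25 and 5.74 in Mtg16 KO. Only Mtg16 KO replicate 1 reached into the WT range, and it lay above WT replicate 3. The log2 fold change of Npas2 was -0.64 (SE 0.26) and did not pass the test (limma adjusted p = 0.323).

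Among the repressors, Per2 and Cry1 were lower in every Mtg16 KO library, while their paralogs Per1, Per3 and Cry2 overlapped between genotypes. The Period and Cryptochrome proteins form the complex that shuts off ARNTL and CLOCK. Per2 (chromosome 1, 91415977 to 91459351) had a TPM of 35.7, 17.2 and 23.9 in WT replicates 1, 2 and 3 and of 13.3, 14.5 and 12.1 in Mtg16 KO. The WT libraries were spread 2.07-fold, and the Mtg16 KO libraries sat close together below them. The mean was 25.6 ± 9.34 TPM in WT and 13.3 ± 1.20 TPM in Mtg16 KO (SD, n = 3 each), with a log2 fold change of -0.84 (SE 0.24, limma adjusted p = 0.263). Without WT replicate 1, the log2 fold change of Per2 was -0.58.

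Cry1 (chromosome 10, 85131700 to 85185054) showed the widest separation among the 10 genes. Its TPM was 15.8, 12.2 and 12.6 in WT and 7.49, 5.13 and 7.29 in Mtg16 KO. All 3 WT libraries lay well above the Mtg16 KO libraries, and neither group was widely spread. Cry1 averaged 13.5 ± 1.98 TPM in WT and 6.64 ± 1.31 TPM in Mtg16 KO (SD, n = 3 each), with a log2 fold change of -0.93 (SE 0.18). This was the lowest p of the 10 genes, and it did not pass the threshold of 0.1 either (limma adjusted p = 0.171). Leaving out WT replicate 1 gave a log2 fold change of -0.82 for Cry1.

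Per1 (chromosome 11, 69095108 to 69109965) is a Period gene that also responds acutely to hormones and light. It was the only one of the 10 with a higher mean in Mtg16 KO. Its TPM was 10.2, 8.85 and 13.8 in WT and 12.4, 13.4 and 12.7 in Mtg16 KO. The Mtg16 KO values all lay inside the WT range, with a log2 fold change of 0.23 (SE 0.17, limma adjusted p = 0.544), or 0.10 without WT replicate 2 and 0.39 without WT replicate 3. Per3 (chromosome 4, 150997018 to 151044707), which is less essential for rhythm than its paralogs, had a TPM of 13.5, 5.20 and 9.21 in WT and of 7.41, 10.1 and 7.08 in Mtg16 KO. Here too the WT range enclosed every Mtg16 KO value (log2 fold change -0.10, SE 0.30, limma adjusted p = 0.901). Cry2 (chromosome 2, 92403646 to 92434085) had a TPM of 11.3, 5.77 and 7.67 in WT and of 7.05, 7.37 and 5.33 in Mtg16 KO. Its groups overlapped, with a log2 fold change of -0.25 (SE 0.24, limma adjusted p = 0.627). That of Cry2 was -0.03 without WT replicate 1, -0.46 without WT replicate 2 and -0.13 without Mtg16 KO replicate 3.

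The Arntl repressor Nr1d1 and the output factor Dbp, which mark the opposite phase to Arntl, did not separate the genotypes. Nr1d1 (chromosome 11, 98767932 to 98775377) had a TPM of 88.9, 42.6 and 60.1 in WT and of 69.1, 58.0 and 42.5 in Mtg16 KO. Mtg16 KO replicates 1 and 2 lay inside the WT range, and replicate 3 just below its lowest library (log2 fold change -0.14, SE 0.28, limma adjusted p = 0.837). Dbp (chromosome 7, 45705100 to 45710203) had a TPM of 57.4, 16.6 and 33.4 in WT replicates 1, 2 and 3, a 3.45-fold span between mice of 1 genotype. In Mtg16 KO its TPM was 29.1, 29.3 and 35.2, a span of 1.21-fold. All Mtg16 KO values of Dbp fell between the lowest and the highest WT library, with a log2 fold change of -0.03 (SE 0.38, limma adjusted p = 0.977). Without WT replicate 1 the log2 fold change of Dbp was 0.38, and without WT replicate 2 it was -0.48, so its sign depended on which mouse was left out. It also turned, to values near 0, without WT replicate 3 (0.001) or Mtg16 KO replicate 1 (0.012) or 2 (0.008), and with quantile normalization (0.03). Nr1d1 and Per3 also turned sign without WT replicate 1, to 0.13 and 0.20 (log2), and Nr1d1 to 0.05 without Mtg16 KO replicate 3.

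**Figure D1:**
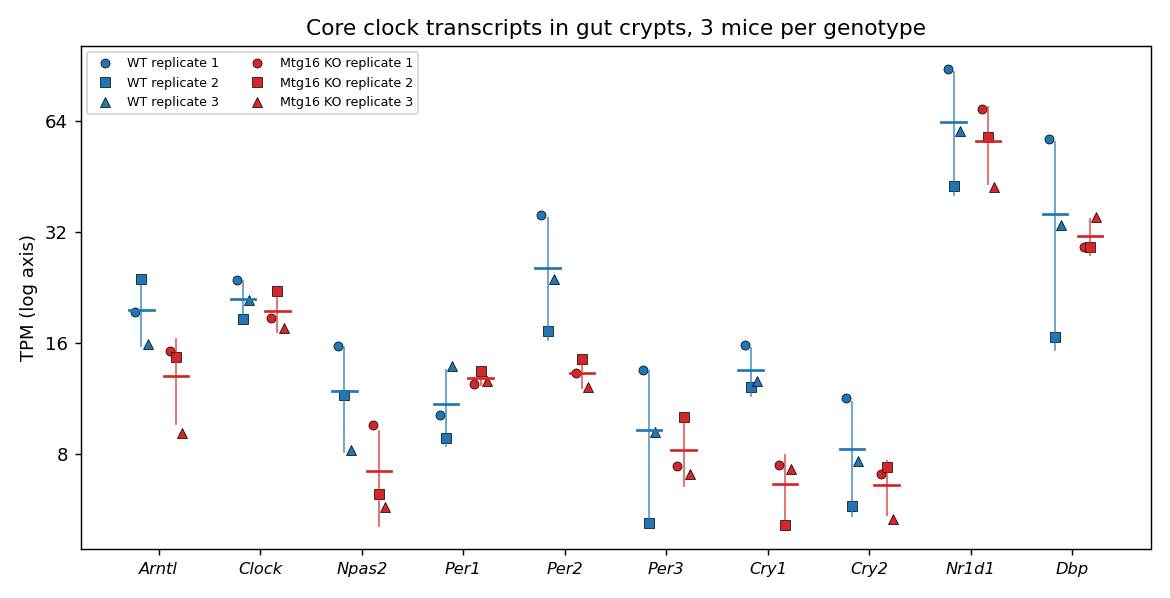
TPM (log axis) of the 10 core clock genes in each library, with WT in blue and Mtg16 KO in red, 1 point per mouse and the marker shape giving the replicate number. Horizontal lines are means and vertical lines ± SD (n = 3), and only for Arntl, Per2 and Cry1 do all Mtg16 KO points lie below all WT points.

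All 10 genes passed the filter, a TPM averaging at least 1, as did 12268 genes in total. In limma's moderated test none of the 10 was called at an adjusted p under 0.1 (0.171 to 0.977), against 4 of all tested genes (0.0326%), namely Ces1c, Cirbp, Creld2 and Klhdc4. At an unadjusted p under 0.05, 4 of the 10 passed (Arntl, Npas2, Per2 and Cry1), against 14.6% of all tested genes. In 3 of the 10, Arntl, Per2 and Cry1, the groups did not overlap, against 21.0% of all tested genes. All 3 were lower in Mtg16 KO, a direction in which 11.1% of all tested genes did not overlap, and none was higher without overlap, against 9.94% of all tested genes. For each of the 3 the exact two-sided permutation test gave 0.1, the smallest p that 3 mice against 3 allow. Any gene without overlap gets this value, so the test adds nothing to the separation itself. The fold change was below 0 in 9 of the 10, against 53.6% of all tested genes. It was below 0 in 6 of the 10 without WT replicate 1, against 54.8%, and in 8 or 9 without any other single library, against 50.2 to 57.9%. Without both libraries numbered 1, an alternative chosen after seeing the data, it was below 0 in 6, against 53.9%. With quantile normalization, where Dbp turned, it was below 0 in 8, against 46.6%.

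The median log2 fold change of the 10 genes was -0.20, beside -0.03 for all tested genes. That median depended on single mice. It was -0.02 without WT replicate 1, -0.45 without WT replicate 2, -0.30 without Mtg16 KO replicate 1 and -0.12 without Mtg16 KO replicate 3. The number of clock genes without overlap cannot fall below 3 when a library is left out, and the share among all tested genes rises too. Without WT replicate 3 it was 5, with Npas2 and Per1, against 29.6% of all tested genes. Cry2 joined without WT replicate 2 and Npas2 without Mtg16 KO replicate 1, which made 4 each, against 32.5% and 38.7%. The other fits gave 3, against 27.7 to 31.4%.

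The spread between mice was wide in WT. The SD of log2(TPM + 1) was larger in WT than in Mtg16 KO for 8 of the 10 genes, all but Arntl and Cry1, against 54.9% of all tested genes. The median SD of the 10 was 0.43 in WT and 0.23 in Mtg16 KO, beside 0.20 and 0.19 over all tested genes. Among the WT mice, replicate 1 had the highest level for 8 of the 10 genes, against 43.8% of all tested genes, and replicate 2 had the lowest level for 8 of the 10, against 42.4% of all tested genes. The exceptions to the first were Arntl, highest in replicate 2, and Per1, highest in replicate 3. WT replicate 2 thus paired the highest Arntl with the lowest Dbp, Nr1d1, Clock, Per1, Per2, Per3, Cry1 and Cry2 of its genotype. Npas2, which shares the phase of Arntl, did not follow it. Its TPM was 15.7 in WT replicate 1 and 11.6 in WT replicate 2. With WT replicate 1 left out, the SD was larger in WT for 6 of the 10, against 30.0% of all tested genes.

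Within WT the levels ran in the order Nr1d1, Dbp, Per2, Clock, Arntl, Cry1, Npas2, Per1, Per3 and Cry2, from 63.9 ± 23.4 TPM for Nr1d1 to 8.26 ± 2.83 TPM for Cry2 (SD, n = 3). The ranges of neighbours in that order overlapped except between Arntl and Cry1. In Mtg16 KO the order was Nr1d1, Dbp, Clock, Per2, Arntl, Per1, Per3, Npas2, Cry1 and Cry2, from 56.5 ± 13.4 TPM for Nr1d1 to 6.58 ± 1.10 TPM for Cry2 (SD, n = 3). There Nr1d1 and Dbp, Dbp and Clock, Clock and Per2, and Per1 and Per3 had ranges that did not overlap, whereas the other neighbours did not differ beyond their ranges.

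A ratio of 2 transcripts within a library does not depend on the scaling of that library, apart from the pseudocount. The ratio of Dbp to Arntl, genes of opposite phase, was 2.95, 0.696 and 2.10 in TPM in WT replicates 1, 2 and 3 and 1.91, 2.00 and 3.85 in Mtg16 KO. WT replicate 2 was the only library with more Arntl than Dbp, and the other 5 libraries mixed across genotypes. The mean log2 ratio was 0.68 ± 1.05 in WT and 1.23 ± 0.53 in Mtg16 KO (SD, n = 3 each), a difference of 0.55 within the spread between mice (two-sided exact permutation p = 0.6). That difference was -0.04 without WT replicate 2, 0.96 without WT replicate 1 and 0.24 without Mtg16 KO replicate 3.

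Ratios between paralogs were added after their values had been seen and are given as a description. The ratio of Per2 to Per1 was 3.48, 1.95 and 1.73 in WT and 1.07, 1.08 and 0.958 in Mtg16 KO. The groups did not overlap, and the difference in log2 ratio was -1.07, from 1.12 ± 0.52 in WT to 0.05 ± 0.09 in Mtg16 KO (SD, n = 3 each). Per3 to Per2 was 0.379, 0.302 and 0.385 in WT and 0.558, 0.696 and 0.583 in Mtg16 KO, again without overlap (difference in log2 ratio 0.74). Cry1 to Cry2 was 1.39, 2.11 and 1.64 in WT and 1.06, 0.696 and 1.37 in Mtg16 KO, where the closest libraries were WT replicate 1 and Mtg16 KO replicate 3 (difference in log2 ratio -0.68, or -0.45 without Mtg16 KO replicate 2). In contrast, the ratios of Per3 to Per1 and of Npas2 to Clock overlapped between the genotypes, with differences in log2 ratio of -0.32 and -0.53, and the former was 0.00 without WT replicate 1. Relative to Per1 and to Cry2 in the same library, Per2 and Cry1 were thus lower in Mtg16 KO, and Per2 was also lower relative to Per3.

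**Figure D2:**
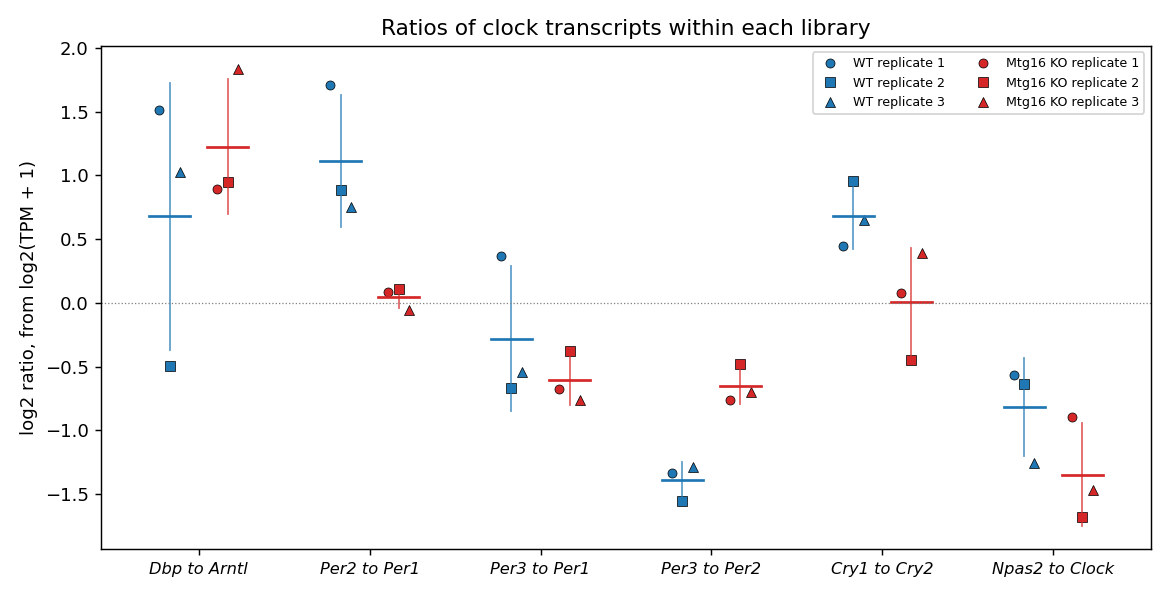
log2 ratio of pairs of clock transcripts within each library, computed from log2(TPM + 1), with WT in blue and Mtg16 KO in red and 1 point per mouse. Horizontal lines are means and vertical lines ± SD (n = 3), and the genotypes do not overlap for Per2 to Per1, Per3 to Per2 and Cry1 to Cry2.

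Among other transcription factors and cofactors of the clock loops, the groups overlapped for Nr1d2, Nfil3, Tef, Hlf, Bhlhe40, Ciart, Cipc and Timeless, while Arntl2, Rora, Rorb and Bhlhe41 were below the filter. The 12 kinases, ubiquitin ligase parts and deubiquitinases that act on clock proteins were all tested. Limma called 0 of them, against 0.0326% of all tested genes. Of the 12, 1 had an unadjusted p under 0.05 (Usp2), against 14.6% of all tested genes, and 2 did not overlap (Usp2 and Prkaa1), against 21.0%, so neither share exceeded that of all tested genes. Their median log2 fold change was -0.01. Usp2, a deubiquitinase whose own transcript is rhythmic in many tissues, had a TPM of 56.3, 37.6 and 42.5 in WT and of 29.9, 31.6 and 31.6 in Mtg16 KO. The Mtg16 KO libraries were nearly alike and all below WT (log2 fold change -0.52, SE 0.16, limma adjusted p = 0.272). Prkaa1, a catalytic subunit of the energy sensor AMPK, had a TPM of 18.3, 19.1 and 19.9 in WT and of 24.0, 23.6 and 21.3 in Mtg16 KO (log2 fold change 0.26, SE 0.12, limma adjusted p = 0.368).

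Of 12 genes often described as rhythmic outputs, all were tested and 0 called by limma, against 0.0326% of all tested genes. An unadjusted p under 0.05 was found for 3 of them (Usp2, Por and Ppard), against 14.6% of all tested genes. Usp2, Nampt and Ppard, 3 of the 12, were lower without overlap, against 11.1% of all tested genes, and 1 was higher without overlap, against 9.94%. Nampt, the rate-limiting enzyme of NAD salvage and a target of the ARNTL and CLOCK pair, had a TPM of 34.1, 18.8 and 24.8 in WT and of 18.6, 18.4 and 18.8 in Mtg16 KO. WT replicate 2 was nearly level with the Mtg16 KO libraries, so the separation rested on the last decimal of the table (log2 fold change -0.42, SE 0.20, limma adjusted p = 0.381). Its log2 fold change was -0.21 without WT replicate 1 and -0.62 without WT replicate 2. Ppard, a nuclear receptor for fatty acids, had a TPM of 148, 131 and 128 in WT and of 124, 99.6 and 100.1 in Mtg16 KO (log2 fold change -0.33, or -0.22 with quantile normalization, SE 0.14, limma adjusted p = 0.325). Mtss1, an actin regulator, was higher in Mtg16 KO, with a TPM of 19.6, 21.6 and 24.3 in WT and of 25.6, 29.4 and 24.7 in Mtg16 KO (log2 fold change 0.27, SE 0.14, limma adjusted p = 0.39). The median log2 fold change of the 12 was -0.10.

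Daily rhythms of glucocorticoids and of body temperature are known to act on peripheral clocks, and genes that respond to each are given here from lists chosen with earlier results of these data known. Of 10 glucocorticoid-induced genes, 9 were tested and 0 called by limma, against 0.0326% of all tested genes. Of the 9, 4 had an unadjusted p under 0.05, against 14.6% of all tested genes, 2 were lower without overlap, against 11.1%, and 1 was higher without overlap, against 9.94%. Their median log2 fold change was -0.53, beside -0.03 for all tested genes. Fkbp5, a co-chaperone of the glucocorticoid receptor, had a TPM of 33.5, 48.4 and 60.3 in WT and of 14.1, 12.3 and 15.7 in Mtg16 KO. Every Mtg16 KO library was far below every WT library, with a log2 fold change of -1.65 (SE 0.21) and a limma adjusted p of 0.104, just short of the threshold. It passed without WT replicate 1 (limma adjusted p = 0.0405, log2 fold change -1.87), without both libraries numbered 1, a choice made after seeing the data (0.0727), and at a mean TPM of at least 5 (0.0998). Over 13 alternative settings, none with a replicate block, its limma adjusted p ran from 0.0405 to 0.512. Tsc22d3, also called Gilz, had a TPM of 66.2, 33.9 and 45.6 in WT and of 30.1, 22.8 and 26.2 in Mtg16 KO (log2 fold change -0.81, SE 0.24, limma adjusted p = 0.263). Ddit4, an inhibitor of mTORC1 signalling, had a higher level in each Mtg16 KO library, with a TPM of 19.3, 23.8 and 23.3 in WT and of 24.8, 32.7 and 29.8 in Mtg16 KO (log2 fold change 0.38, SE 0.15, limma adjusted p = 0.315). The glucocorticoid-induced list also holds Per1, which lay within the WT range.

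Of 8 temperature-responsive genes, all were tested and 1 was called by limma, against 0.0326% of all tested genes. Of the 8, 6 had an unadjusted p under 0.05, against 14.6% of all tested genes, 2 were higher without overlap, against 9.94%, and 5 lower without overlap, against 11.1%. Their median log2 fold change was -0.74. The list mixes cold-inducible genes, which were higher, with heat shock genes, which were lower or overlapped, so this median is not a common direction. The called gene was Cirbp, a cold-inducible RNA-binding protein, which had a TPM of 19.5, 24.1 and 22.0 in WT and of 47.1, 51.5 and 58.3 in Mtg16 KO. All 3 Mtg16 KO libraries were higher, with a log2 fold change of 1.22 (SE 0.14, limma adjusted p = 0.0894), and the call was lost in 10 of 15 alternative settings. Those 10 included the fits without WT replicate 2 or 3 or any single Mtg16 KO library (limma adjusted p = 0.153 to 0.512). The replicate block was among the 15, and the call was kept there (limma adjusted p = 0.00476). Rbm3, its cold-inducible relative, had a TPM of 153, 189 and 238 in WT and of 323, 411 and 509 in Mtg16 KO (log2 fold change 1.09, SE 0.22, limma adjusted p = 0.171). The 5 lower without overlap were heat shock genes, none of them called by limma. Hsph1 had a TPM of 91.5, 110.4 and 201 in WT and of 27.3, 37.1 and 37.5 in Mtg16 KO (log2 fold change -1.88, SE 0.28, limma adjusted p = 0.104). Hspa1b, Hsp90aa1 and Hspa8 had log2 fold changes of -2.08, -1.07 and -0.41 and limma adjusted p-values of 0.104, 0.121 and 0.386, while Dnajb1 overlapped. Without WT replicate 1, Hsph1, Hspa1b and Hsp90aa1 passed (limma adjusted p = 0.0682, 0.0746 and 0.0746), whereas over 13 settings without a replicate block their adjusted p reached 0.512, 0.512 and 0.586. Without WT replicate 3 the log2 fold change of Hspa8 was -0.26, and with quantile normalization it was -0.66. Hspa1a was listed at 0 in Mtg16 KO replicates 1 and 2 and at 0.61 TPM in replicate 3, against 1.80, 1.57 and 4.18 TPM in WT, but it is a near-identical copy of Hspa1b and the division of reads between them is uncertain. Of these 2 lists, 3 glucocorticoid-induced and 7 temperature-responsive genes did not overlap between genotypes, as Arntl, Per2 and Cry1 did not, and their part in the clock levels was not tested.

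To find transcripts with the most similar pattern, Pearson's r of log2(TPM + 1) with Dbp and with Arntl was taken over the 6 libraries for the 10052 other tested genes that averaged at least 5 TPM. As the highest of so many values, these are a description. Among the 5 genes nearest to Dbp were Bche (r = 0.992), Arl3 (0.978), Manea (0.977) and Rtn3 (0.975). Bche, a cholinesterase, had a TPM of 45.3, 23.4 and 33.1 in WT and of 32.2, 32.3 and 33.2 in Mtg16 KO, the same arrangement of a wide WT range around close Mtg16 KO values. The 5 genes nearest to Arntl were Pcid2 (r = 0.988), Vps37c (0.979), Mafg (0.976), Creld1 (0.969) and Nprl3 (0.967). Some of these values depended on the scaling, and with quantile normalization r was 0.801 for Pcid2, 0.860 for Nprl3, 0.805 for Rtn3 and 0.924 for Manea. With median-ratio rescaling r was 0.908 for Pcid2 and 0.904 for Rtn3. Mafg, a small MAF transcription factor, had a TPM of 29.6, 31.7 and 23.9 in WT and of 22.5, 25.0 and 16.6 in Mtg16 KO. A high r does not mean a change of similar size. Pcid2 was nearly flat, from 13.7 TPM in Mtg16 KO replicate 3 to 16.2 TPM in WT replicate 2 (log2 fold change -0.09).

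Because E-boxes, RORE and D-box elements carry the regulation within the loop, the promoters of the 10 genes were searched for their letters. RefSeq promoter sequences (GRCm38.p6, 250 bases before to 50 after the start of a gene) matched 9 of the 10, all but Per2. Searched on both strands were the E-box CACGTG, its variant CACGTT, the RORE core TNGGTCA and the D-boxes TTATGTAA and TTACGTAA. Of 32851 promoters of this length, 7.15% held CACGTG, 4.68% CACGTT, 11.0% TNGGTCA, 0.938% TTATGTAA and 0.119% TTACGTAA. The 9 genes had 13 such windows, since Arntl and Per1 had 2 each and Clock 3, and a gene was counted if any of its windows held the letters. Counted in this way, 8.09% of 27025 genes held CACGTG, 5.44% CACGTT, 12.4% TNGGTCA, 1.11% TTATGTAA and 0.126% TTACGTAA. Of the 9 genes, 2 held CACGTG (Per1 and Cry1), 3 held CACGTT (Cry1, Cry2 and Nr1d1), 3 held TNGGTCA (Arntl, Per3 and Cry2) and 1 held TTATGTAA (Per3), while 0 held TTACGTAA. A match is a description of the letters in this window, not of a bound site. Some TNGGTCA matches share bases with a CCAAT box, which 37.4% of promoters held, and this was so for 1 of the 3 in the Arntl window shown and for those of Per3 and Cry2.

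The promoters of Arntl and Cry1, which were lower in Mtg16 KO without overlap, are shown with those of Per1 and Per3, which overlapped, since the elements of the loop differ between them. For Arntl and Per1 the window with the most matches is shown. Capitals mark every match to the motifs searched, each sequence runs 5′ to 3′ on the strand of its gene, and coordinates are GRCm38. The Arntl window (chr7:113207261-113207560, plus strand) held 3 TNGGTCA matches, which begin 246 and 227 bases before the start and at base 31 after it. The Cry1 promoter (chr10:85185005-85185304, minus strand) held a CACGTG 60 bases before the start and a CACGTT on the opposite strand 79 bases before it. The Per1 window (chr11:69098699-69098998, plus strand) held a CACGTG 166 bases before the start. The Per3 promoter (chr4:151044616-151044915, minus strand) held TTATGTAA 205 and 158 bases before the start and a TNGGTCA on the opposite strand at 118 bases.
Arntl: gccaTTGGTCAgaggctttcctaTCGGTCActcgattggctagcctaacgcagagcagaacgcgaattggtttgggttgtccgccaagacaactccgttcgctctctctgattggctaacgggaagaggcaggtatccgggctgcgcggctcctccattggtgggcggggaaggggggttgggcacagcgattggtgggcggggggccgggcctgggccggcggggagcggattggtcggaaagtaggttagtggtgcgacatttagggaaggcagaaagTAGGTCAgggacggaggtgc
Cry1: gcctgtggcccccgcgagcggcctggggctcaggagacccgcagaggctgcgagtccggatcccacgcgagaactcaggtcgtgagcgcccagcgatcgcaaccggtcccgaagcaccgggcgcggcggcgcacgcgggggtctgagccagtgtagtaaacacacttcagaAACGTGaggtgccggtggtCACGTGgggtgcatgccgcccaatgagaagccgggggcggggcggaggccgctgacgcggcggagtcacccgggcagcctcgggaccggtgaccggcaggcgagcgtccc
Per1: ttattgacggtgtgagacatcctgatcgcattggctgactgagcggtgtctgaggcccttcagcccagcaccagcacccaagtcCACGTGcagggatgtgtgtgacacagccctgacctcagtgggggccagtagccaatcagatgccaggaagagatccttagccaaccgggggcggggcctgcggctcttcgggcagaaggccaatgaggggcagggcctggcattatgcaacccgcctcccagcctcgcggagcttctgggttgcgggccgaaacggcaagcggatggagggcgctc
Per3: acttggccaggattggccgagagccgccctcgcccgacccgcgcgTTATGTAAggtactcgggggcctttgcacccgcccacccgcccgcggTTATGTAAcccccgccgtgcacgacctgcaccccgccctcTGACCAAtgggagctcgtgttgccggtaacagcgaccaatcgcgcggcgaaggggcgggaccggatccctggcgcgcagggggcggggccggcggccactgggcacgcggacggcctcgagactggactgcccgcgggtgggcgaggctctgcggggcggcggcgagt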

How the data were processed

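RNA sequencing libraries of intestinal crypts from 3 WT and 3 Mtg16 KO mice were grouped by their labels. The authors used 200 ng of total RNA, ribosomal depletion and 14 PCR cycles, and deposited RSEM values in TPM, rounded to 2 decimals. Their processing notes name cutadapt 1.9.1, STAR 2.5.2a, RSEM 1.3.0 and the build mm10 (GRCm38). TPM is not a count, so no count test was run.

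Values were taken as log2(TPM + 1), which understates changes of low genes. Genes averaging at least 1 TPM (12268) were tested with limma 3.58.1 (R 4.3.3, eBayes with an intensity trend, two-sided, no covariates) and Benjamini-Hochberg adjustment over all of them, at a threshold of 0.1. The calculation was tested on simulated data with the same spread for every gene and changes larger than those of the clock genes. That check does not measure the power for the clock genes. Groups did not overlap when every TPM of one exceeded every TPM of the other. Alternatives were another pseudocount, other filters, scalings and thresholds, no trend, a replicate block and libraries left out.

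The members and lists were chosen with earlier results of these data known. Named are the 10 members, Cbfa2t3, the leading gene of each marker list, genes of the clock-related, glucocorticoid and temperature lists that were called or did not overlap, and the 5 genes most like Dbp and like Arntl. A gene of a clock-related list and 1 like Dbp are not reported here, and no counts are given for that list. Other genes and the paralog ratios were chosen after their values were seen. Positions and promoters are from RefSeq GRCm38.p6.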

Additional observations from a re-analysis of the deposited data

How the results depend on the processing

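The TPM values carry no depth, so counting error is unknown, and with 3 mice per genotype no exact test can go below 0.1. The number of called genes, 4 of all tested, changed with most settings. It was 0 without a filter, 15 at a mean TPM of at least 5, 1 with median-ratio rescaling, 1 with quantile normalization, 0 without the intensity trend, 0 at an adjusted p under 0.05 and 0 to 20 when 1 library was left out. Without both libraries numbered 1, an alternative chosen after seeing the data, it was 73. The causes were not tested.

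With replicate number as a replicate block, limma called 1201 genes, 4 clock genes among them (Cry1 at an adjusted p of 0.0236, Per2 at 0.0661, Npas2 at 0.068 and Arntl at 0.07). It also called Fkbp5 (0.00476), Rbm3 (0.00437), Hsph1 (0.00437), Hsp90aa1 (0.0052), Hspa1b (0.0132), Hspa1a (0.0182), Tsc22d3 (0.0232) and Usp2 (0.0942). The same number names different animals. The deviation of each library from the mean of its genotype correlated across genes with that of its namesake at 0.429, 0.0753 and 0.237 for numbers 1, 2 and 3, and 5 of 6 libraries correlated best with their own number, which is a hint from the data and not from the design. The block was therefore not used elsewhere, except as 1 of the 15 alternative settings counted for Cirbp.

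Without the block, no clock gene was called under any alternative, and the lowest adjusted p was 0.162. Arntl, Per2 and Cry1 were also the clock genes without overlap after median-ratio rescaling (21.9% of all tested genes) and quantile normalization (22.0%). The number of clock genes without overlap, which cannot fall below 3 when a library is left out, was then 3 to 5, against 27.7 to 38.7% of all tested genes. The median log2 fold change of the 10 genes was -0.449 to -0.023 over those fits, and the difference in log2 ratio of Dbp to Arntl was -0.04 to 0.96, or 1.13 without both libraries numbered 1.

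Of the 10 clock genes and 15 other named list genes, 21 kept the sign of their fold change in the 10 alternatives that recompute it (another pseudocount, 2 scalings and libraries left out). Log2 fold changes that turned sign were those of Dbp (-0.48 to 0.38 with 1 library left out, 0.031 with quantile normalization and 0.43 without both libraries numbered 1), Nr1d1 (-0.39 to 0.13), Per3 (-0.42 to 0.20, and 0.25 without both libraries numbered 1), Clock (0.004 without both) and the targeted gene Cbfa2t3 (-0.26 to 0.15). The cause was not tested.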
